A study of Drosophila melanogaster with 9 samples.

Results

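Ovaries of Drosophila melanogaster mutant for DPLG4 (CG7492) were compared with ovaries of w1118 control flies across all genes, on and off chromosome arm 3L, which carries the mutated gene. Libraries were chosen by their titles, so that 3 DPLG4 mutant libraries (replicates 15, 3 and 7) and 3 control libraries (replicates 1, 2 and 3) were taken, 6 of the 9 libraries of the series. The other 3 are ovaries of DPLG1 mutants, which entered the same fit and are given beside the results where they help to place them. All flies were kept on standard medium, and total RNA of whole ovaries was sequenced. The labels give the genotype only as mutant for the gene. They do not give how the mutation was made, the age of the flies, how many were pooled, or whether the mutant and control flies share the rest of their chromosomes, so loss of CG7492 and any other difference between the mutant and control stocks cannot be told apart. The replicates were separate biological samples per the labels, and the meaning of the title numbers is not stated there.

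DPLG genes are host genes that derive from the transposase of PIF elements, a class of DNA transposon. In domesticated genes of this kind the coding sequence has been kept by the host while the element around it no longer moves, and such proteins often act in the nucleus. The fly ovary consists of strings of egg chambers, each with germline cells (nurse cells and the oocyte) wrapped in somatic follicle cells that late in oogenesis secrete the eggshell.

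Gene counts summed to 51512876 to 95751320 in the DPLG4 mutant libraries and to 18078883 to 93767502 in the controls. A floor of 3 counts was 0.0313 to 0.166 CPM (gene counts scaled to a common library total) over the 9 libraries. In control replicate 1, 70.7% of the deposited total were reads that did not align to a single place, against 7.61% to 10.001% in the other libraries. DPLG4 mutant replicate 15 stood apart from the other mutants: of 7053 genes with a mean of at least 1 CPM, 195 were more than 2-fold above both other replicates there, against 8 and 18 in replicates 3 and 7. Defining ovary genes were present in all 6 libraries. The germline gene oskar (osk) lay between 1570 and 1728 CPM in the mutants and between 1525 and 1725 CPM in the controls. The follicle cell gene traffic jam (tj) stood at 18.9, 6.94 and 6.63 CPM in mutant replicates 15, 3 and 7, and at 6.48, 6.29 and 3.49 CPM in the controls. The germline markers nos and vas were not matched to the annotation.

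CG7492 (FBgn0035807, build BDGP6.54, 3L:7651866-7654752, minus strand) was low in each mutant library. It had 102, 147 and 77 counts in mutant replicates 15, 3 and 7, and 2692, 13517 and 2910 counts in control replicates 1, 2 and 3. The groups did not overlap, and the summed counts leave 1.10% of the control level, with the control 90.9 times the mutant (95% exact interval 81.4 to 102, counting error only). The log2 fold change was -6.50 (SE 0.23, edgeR adjusted p = 2.33e-06). The signal that remained was similar in the 3 mutant libraries, at 1.68, 1.52 and 1.52 CPM, all far above the floor.

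The other members of the gene family were not called. CG12253 (DPLG1, 2L) stood at 66.2 ± 9.58 CPM in DPLG4 mutants and 60.9 ± 7.80 CPM in controls (SD, n = 3; edgeR adjusted p = 0.768). CG32095 (DPLG3), which lies 4171 kb from CG7492 on 3L, stood at 58.5 ± 3.97 against 50.8 ± 1.89 CPM, and its groups did not overlap (log2 fold change 0.20, SE 0.09, edgeR adjusted p = 0.475). CG32187 (DPLG2, 3L) had 1, 4 and 0 counts in the mutants and 0, 3 and 0 in the controls, too few to test.

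Of 7 other annotated genes that overlap CG7492 or start within 50 kb of it, 4 were tested and 1 was called. PGRP-SD, which encodes a peptidoglycan recognition protein of innate immunity, shares 35 bp of exon with CG7492 on the opposite strand. It had 3, 1 and 0 counts in mutant replicates 15, 3 and 7 and 15, 55 and 10 counts in the controls, a ratio of 31.0 (interval 11.6 to 116; edgeR adjusted p = 0.0127). The call was missed under 5 of 17 alternative settings. The strand setting of the counting is not given, so reads of PGRP-SD and of the end of CG7492 cannot be told apart. CG32373, whose span contains CG7492, stood at 11.1 ± 0.387 CPM in mutants and 11.7 ± 0.343 CPM in controls, with overlapping groups and no call (log2 fold change -0.08, edgeR adjusted p = 0.769). Urm1 (13.6 ± 3.54 against 13.4 ± 4.98 CPM) and CG7506 (47.7 ± 9.12 against 43.7 ± 7.26 CPM) differed by less than the spread between replicates. The snoRNA gene snoRNA:Me18S-A1806 was not tested, with 5, 6 and 5 counts in the mutants and 0, 1 and 0 in the controls. The lncRNA gene lncRNA:CR45866 and CG44195 had no counts in either group.

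Over the genome, edgeR's quasi-likelihood test called 36 of 8427 tested genes at a Benjamini-Hochberg adjusted p under 0.05 (0.427%). These were 23 higher (0.273%) and 13 lower (0.154%) in the mutant, CG7492 included. At an unadjusted p under 0.05 there were 908 genes (10.8%), 617 higher (7.32%) and 291 lower (3.45%). DESeq2 called 228 (2.71%), 156 higher (1.85%) and 72 lower (0.854%). The median log2 fold change over all tested genes was -0.01 with quartiles of -0.18 and 0.19, so most ovary transcripts lay near the control level. The count of calls depended on the libraries: it fell to 12 when only the 6 libraries compared were fitted, and to 19 and 14 when DPLG4 mutant replicate 15 or 3 was left out, and to 17, 11 and 14 when control replicate 1, 2 or 3 was. Without DPLG1 mutant replicates 22, 5 and 7, which inform the spread and the filter, it was 20, 18 and 19.

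Of the 34 placed calls other than CG7492, 24 lay on 3L (1.53% of 1571 tested genes there) and 10 on other arms (0.150% of 6676). CG7492 aside, 3L held 16 higher and 8 lower genes. The median size of the log2 fold change was 2.72 among the calls on 3L and 1.33 among the 11 calls elsewhere or unplaced. Folds ranged from 1.51 to 107 and from 1.85 to 7.04. Of the 24 calls on 3L, 5 had every control and 2 every mutant under the 0.194 CPM that the filter asks for. Elsewhere or unplaced these were 0 and 1. Folds of such genes rest on few counts in 1 group, so the medians are not compared like for like. Of the 24 calls on 3L, 9 overlap an exon of another gene on the opposite strand. The strand setting of the counting is not given, so reads of such pairs cannot be told apart where they overlap.

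**Figure D1:**
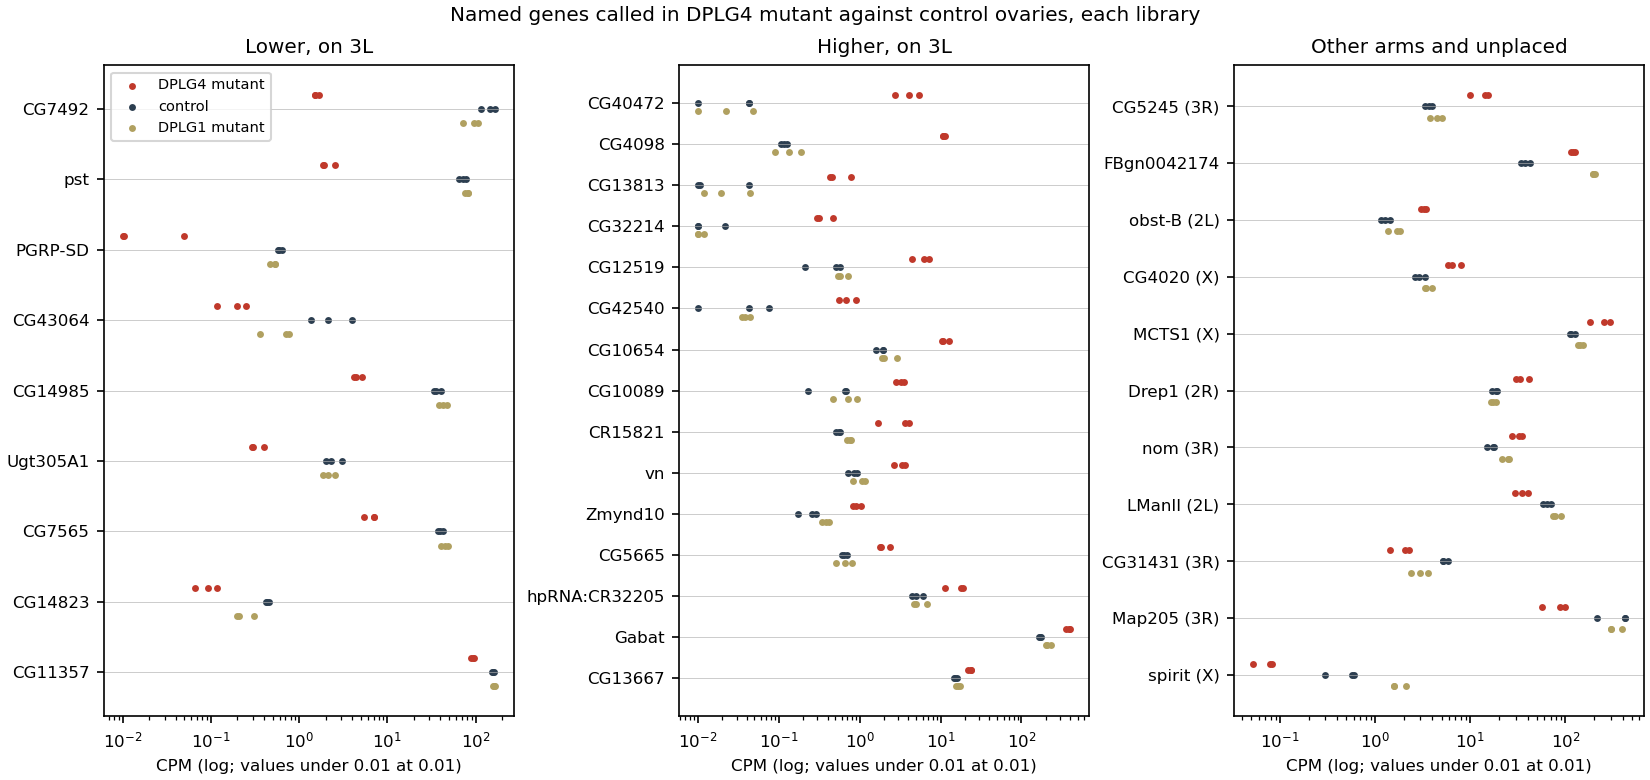
CPM of each named gene called in DPLG4 mutant against control ovaries, on a log scale, 1 point per library, with values under 0.01 CPM drawn at 0.01. Red points are DPLG4 mutants, dark points controls and tan points DPLG1 mutants, with genes on 3L in the left and middle panels. For all 35 genes shown the red points lie apart from the dark ones.

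The genes lower on 3L were led by pst (pastrel), known for its part in resistance to RNA viruses in flies. It stood at 2.52, 1.86 and 1.91 CPM in mutant replicates 15, 3 and 7 and at 64.3, 71.4 and 77.8 CPM in the controls. The groups lay far apart, with the control 34.3 times the mutant (interval 31.2 to 37.9; log2 fold change -5.08, SE 0.16, edgeR adjusted p = 1.63e-06), so that 2.91% of the control level remained. This gene starts 0.295 Mb from CG7492 and overlaps no other annotated gene. In DPLG1 mutants pst stood at 79.6 ± 4.05 CPM.

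CG14985, CG7565 and Ugt305A1 were also lower under every one of the 18 alternative settings. CG14985 stood at 5.10, 4.17 and 4.45 CPM in the mutants and at 40.97, 35.7 and 33.9 CPM in the controls (log2 fold change -3.01, SE 0.14, edgeR adjusted p = 1.05e-05). CG7565 stood at 7.01, 7.12 and 5.37 CPM in the mutants and at 37.2, 42.6 and 39.4 CPM in the controls (log2 fold change -2.61, SE 0.14, edgeR adjusted p = 3.62e-05). Ugt305A1, which encodes an enzyme of the UDP-glycosyltransferase family, stood at 0.297, 0.404 and 0.295 CPM against 3.07, 2.28 and 2.004 CPM (log2 fold change -2.86, SE 0.27, edgeR adjusted p = 0.00262). For each of the 3 the lowest control was several times the highest mutant. CG14985 and Ugt305A1 are neighbours among the calls, starting 56.3 kb apart. CG7565 lies within the span of Sarm on the opposite strand but shares no exon with it, and Sarm itself was not called (47.9 ± 21.99 against 44.7 ± 16.4 CPM).

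CG11357 was lower by less, but with little spread, at 88.0, 93.0 and 94.8 CPM in the mutants and 155, 159 and 160 CPM in the controls (log2 fold change -0.78, SE 0.08, edgeR adjusted p = 0.00349). CG43064 varied among controls, which stood at 3.97, 2.10 and 1.37 CPM against 0.198, 0.248 and 0.118 CPM in the mutants (log2 fold change -3.67, SE 0.51, edgeR adjusted p = 0.0219). It lay between the groups in DPLG1 mutants, at 0.615 ± 0.219 CPM, and was missed under 7 of 18 alternatives. CG14823 was low in every library, at 0.0924 ± 0.0260 against 0.438 ± 0.0177 CPM (edgeR adjusted p = 0.0316), and was missed under 11 of 17. It overlaps an exon of CG32391 on the opposite strand.

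Among the genes higher on 3L, CG4098, CG40472, CG13813 and CG32214 were close to absent from the controls. CG4098 stood at 11.3, 10.6 and 10.7 CPM in the mutants and at 0.128, 0.107 and 0.114 CPM in the controls. The difference rested on 2249 counts against 15, a ratio of 96.8 (interval 58.6 to 173; edgeR adjusted p = 1.05e-05), and the 3 mutant libraries lay within a narrow range. CG4098 overlaps an exon of Arts on the opposite strand. Arts was not called and leaned the other way, at 99.2 ± 7.88 CPM in mutants against 118 ± 12.6 CPM in controls (edgeR adjusted p = 0.452).

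CG40472, which lies 17.3 Mb from CG7492 toward the centromere, stood at 4.09, 5.35 and 2.70 CPM in the mutants, 902 counts in all. The controls held 5 counts, none of them in replicate 3, for a ratio of 116 (interval 49.7 to 360; edgeR adjusted p = 0.00274). It had 0.0232 ± 0.0237 CPM in DPLG1 mutants. CG13813 had 125 counts over the mutants and 2 over the controls (ratio 40.3, interval 10.9 to 337; edgeR adjusted p = 0.0187), and CG32214 had 79 and 2 (ratio 25.5, interval 6.83 to 214; edgeR adjusted p = 0.0316). The calls of CG13813 and CG32214 were missed under 5 and 10 of 17 alternatives. CG13813 overlaps CG17233 on the opposite strand, which was not called and had a lower mean in the mutants (94.5 ± 44.6 against 185 ± 60.5 CPM).

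Gabat encodes GABA transaminase, the enzyme that breaks down the neurotransmitter GABA, and was higher in the mutants. It stood at 403, 390 and 354 CPM in mutant replicates 15, 3 and 7 and at 168, 174 and 166 CPM in the controls. All 3 mutants were above 2 times the control mean, with a log2 fold change of 1.17 (SE 0.09, edgeR adjusted p = 0.000607). DPLG1 mutants stood at 213 ± 15.9 CPM, so that DPLG4 mutants were also above them (log2 fold change 0.84, edgeR adjusted p = 0.00337). Its exons overlap those of Tom20 on the opposite strand, whose level was close in both groups (237 ± 44.8 against 223 ± 20.9 CPM, log2 fold change 0.09, edgeR adjusted p = 0.794).

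CG10654 stood at 12.6, 10.3 and 10.6 CPM in the mutants and at 1.92, 1.596 and 1.95 CPM in the controls (log2 fold change 2.63, SE 0.22, edgeR adjusted p = 0.00109). It overlaps an exon of vih on the opposite strand, which was not called and had a lower mean in the mutants (223 ± 19.5 against 273 ± 72.2 CPM). CG12519 stood at 6.17, 7.23 and 4.39 CPM against 0.213, 0.568 and 0.515 CPM (log2 fold change 3.72, SE 0.37, edgeR adjusted p = 0.00292). CG32214 starts 5.15 kb before CG12519, and the hairpin RNA gene hpRNA:CR32205, whose transcript can fold into a precursor of small interfering RNAs, starts 47.0 kb before CG32214. hpRNA:CR32205 stood at 18.9, 17.9 and 11.2 CPM in the mutants and at 6.14, 5.03 and 4.47 CPM in the controls (log2 fold change 1.62, SE 0.24, edgeR adjusted p = 0.0316). It overlaps an exon of CR33255 on the opposite strand. CG12519, CG32214 and hpRNA:CR32205 are neighbours among the calls, and genes between them that were not called are not described. The call of hpRNA:CR32205 was missed under 10 of 18 alternatives.

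The gene vn (vein) encodes a neuregulin-like ligand of the EGF receptor, a pathway used in the follicle cells. It stood at 3.33, 3.60 and 2.64 CPM in the mutants and at 0.725, 0.932 and 0.859 CPM in the controls (log2 fold change 1.92, SE 0.24, edgeR adjusted p = 0.0130). The groups were apart, and the call was missed under 5 of 18 alternatives.

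Another 6 higher genes on 3L were called less stably. CG42540 had 154 counts over the mutants and 8 over the controls (ratio 12.4, interval 6.15 to 29.3; edgeR adjusted p = 0.0187). It starts 14.04 kb from CG11357, which was lower. The pseudogene CR15821 stood at 3.14 ± 1.28 against 0.549 ± 0.0319 CPM, CG10089 at 3.19 ± 0.385 against 0.525 ± 0.257 CPM and CG5665 at 1.99 ± 0.322 against 0.639 ± 0.0454 CPM. Zmynd10, needed for the assembly of ciliary dynein arms, stood at 0.914 ± 0.0995 against 0.239 ± 0.0605 CPM. CG13667 had the smallest change among the calls on the arm, at 23.6, 23.6 and 21.8 CPM against 16.0, 15.2 and 14.6 CPM (log2 fold change 0.59, SE 0.09, edgeR adjusted p = 0.0349). It overlaps an exon of Oseg1 on the opposite strand. These 6 calls were missed under 7 to 12 alternatives each.

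FBgn0042174, an identifier with no name or position in the annotation used, was higher in the mutants under every alternative. It stood at 121, 114 and 125 CPM in the mutants and at 42.2, 37.8 and 34.5 CPM in the controls (log2 fold change 1.65, SE 0.10, edgeR adjusted p = 9.43e-05). The gene was higher still in DPLG1 mutants (198 ± 6.11 CPM), and DPLG4 mutants were below them by the direct test (log2 fold change -0.73, edgeR adjusted p = 0.0122).

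On 3R, Map205, a microtubule-associated protein known to bind Polo kinase, was lower in the mutants. It stood at 56.6, 88.2 and 98.0 CPM in mutant replicates 15, 3 and 7 and at 214, 424 and 424 CPM in the controls (log2 fold change -2.13, SE 0.30, edgeR adjusted p = 0.0249). Every mutant was below every control, while DPLG1 mutants stood at 330 ± 52.5 CPM. Also on 3R, CG5245 stood at 15.5, 14.3 and 9.996 CPM against 4.01, 3.38 and 3.66 CPM (log2 fold change 1.85, SE 0.20, edgeR adjusted p = 0.00588). The gene nom was higher (31.6 ± 3.86 against 16.7 ± 1.62 CPM) and CG31431 lower (1.92 ± 0.442 against 5.36 ± 0.394 CPM; edgeR adjusted p = 0.0282 and 0.0417). In DPLG1 mutants these stood between the groups, at 24.1 ± 2.43 and 2.98 ± 0.593 CPM, and neither differed from DPLG4 mutants by the direct test (edgeR adjusted p = 0.422 and 0.525).

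On 2R, Drep1, of the DNA fragmentation factor family, stood at 30.04, 41.3 and 33.2 CPM in the mutants and at 19.2, 16.998 and 18.6 CPM in the controls (log2 fold change 0.93, SE 0.13, edgeR adjusted p = 0.0249). On 2L, the lysosomal alpha-mannosidase gene LManII stood at 29.8, 34.9 and 40.0 CPM in the mutants and at 58.7, 70.4 and 64.2 CPM in the controls (log2 fold change -0.89, SE 0.14, edgeR adjusted p = 0.0333). DPLG1 mutants lay on the control side for both, at 17.5 ± 1.14 and 81.2 ± 8.15 CPM. The chitin-binding protein gene obst-B, also on 2L, stood at 3.25 ± 0.180 against 1.29 ± 0.149 CPM (edgeR adjusted p = 0.0316).

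On X, spirit encodes a serine protease that acts upstream of the Toll receptor in immunity. It was low in every library, at 0.0825, 0.0518 and 0.0787 CPM in the mutants and 0.298, 0.600 and 0.572 CPM in the controls (14 against 73 counts; edgeR adjusted p = 0.0187). DPLG1 mutants were above both groups at 1.76 ± 0.286 CPM. MCTS1, a factor of translation reinitiation, stood at 297, 182 and 257 CPM against 125, 114 and 111 CPM (log2 fold change 1.07, SE 0.17, edgeR adjusted p = 0.0343). Its mutants were all above the controls but differed among themselves more than the controls did. CG4020, also on X, stood at 6.79 ± 1.10 against 2.94 ± 0.361 CPM (edgeR adjusted p = 0.0347). Apart from CG5245, missed under 2 alternatives, the placed calls off 3L were missed under 6 to 12 of 18.

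The arms were then compared over all their tested genes. By arm, edgeR called 2 of 1450 genes on 2L (0.138%), 1 of 1678 on 2R (0.0596%), 4 of 1987 on 3R (0.201%), 3 of 1468 on X (0.204%) and none of 77 on chromosome 4, against 25 of 1572 on 3L (1.59%, CG7492 included). On chromosome 4, 7 genes reached an unadjusted p under 0.05, and 4 were called by DESeq2. 3R, which shares its chromosome with 3L, had a share of calls like that of X.

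The contrast between 3L and the rest was smaller for less strict measures. DESeq2 called 4.96% of genes on 3L without CG7492 and 2.10% of placed genes elsewhere, and an unadjusted p under 0.05 was reached by 13.6% and 10.04%. Mutant and control libraries were fully separated at 18.8% of genes on 3L and 15.6% elsewhere, beside 16.3% of all tested genes. Genes with a large log2 fold change that missed the test included gut markers near 0 in the controls, such as the protease gene Jon65Aiv on 3L, at 3.13, 11.9 and 0.00 CPM in the mutants and 0.00, 0.0214 and 0.00 CPM in the controls. The median log2 fold change of the nuclear arms ran from -0.04 (X) to 0.04 (chromosome 4), and on 3L it was -0.02. No test of the arms against each other was run, since neighbouring genes are not independent.

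**Figure D2:**
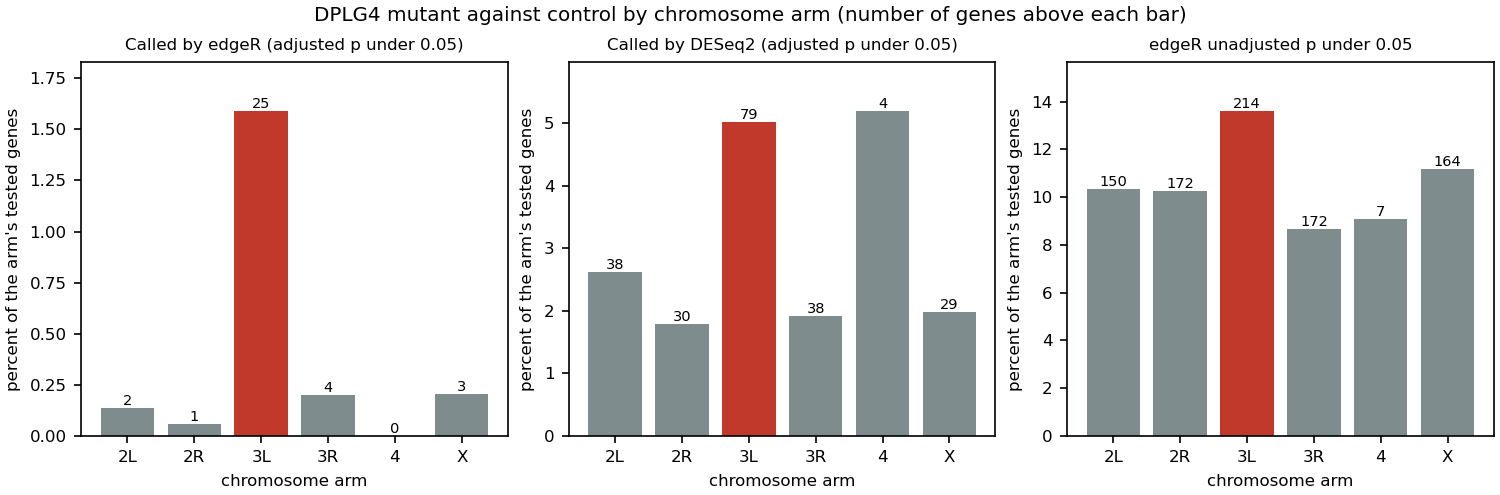
Share of the tested genes of each chromosome arm, in percent, that edgeR called, that DESeq2 called, and that had an unadjusted edgeR p under 0.05, in DPLG4 mutant against control ovaries, with the number of genes above each bar (CG7492 counted on 3L). The 3L bar is the highest for edgeR calls (25 genes) and for unadjusted p (214 genes). For DESeq2 chromosome 4 is slightly above it, at 5.19% (4 of 77 genes) against 5.03%.

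Along 3L the calls were spread widely, from 5.48 Mb on the telomere side of CG7492 to 17.3 Mb on the centromere side. Within 5 Mb of it 13 of 663 tested genes were called (1.96%), and beyond 5 Mb 11 of 908 (1.21%), of which 7 were more than 10 Mb away. Among the edgeR calls directions were not spread alike. The 8 lower genes all lay between 3.65 Mb on the telomere side and 4.18 Mb on the centromere side, among 5 higher genes within 5 Mb. Beyond 5 Mb toward the centromere 10 genes were higher and none lower of 697 tested. There DESeq2 called 24 higher and 7 lower, and 58 higher and 31 lower genes reached an unadjusted p under 0.05. Within 5 Mb DESeq2 called 24 higher and 16 lower, and 61 higher and 38 lower genes reached an unadjusted p under 0.05. Placed genes off 3L had 468 higher and 202 lower at that level. The difference in direction between the zones thus rests on few calls and was small by unadjusted p. Toward the telomere 1 of 211 genes was called.

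**Figure D3:**
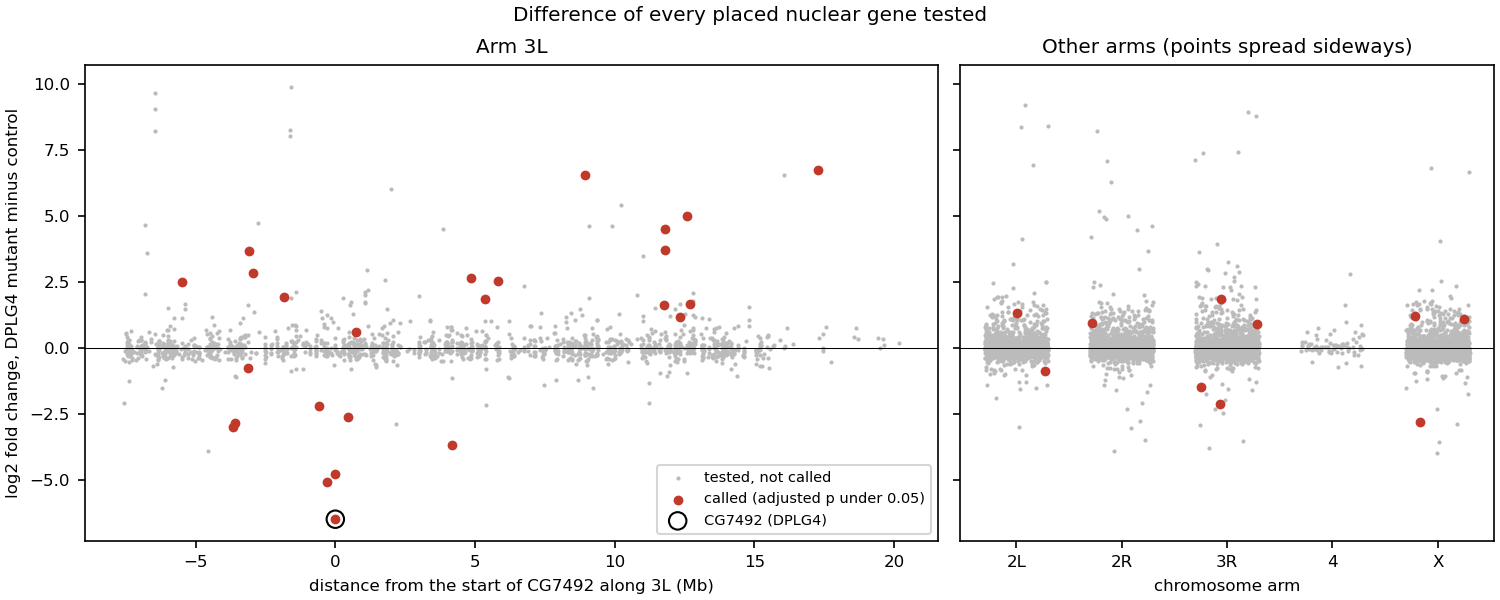
Log2 fold change of every placed nuclear gene tested, DPLG4 mutant minus control, against the distance from the start of CG7492 along 3L in Mb (left, negative toward the telomere) and for the other arms (right, points spread sideways). Red points are edgeR calls and grey points other tested genes. The 8 lower calls besides CG7492 lie within 5 Mb of it, and the calls beyond that distance are higher.

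DPLG4 mutants were also compared with DPLG1 mutants, a comparison that shares the DPLG4 libraries with the one above. It called 53 of 8427 genes (0.629%), 26 higher and 27 lower in DPLG4 mutants, and 29 of the 1572 genes on 3L (1.84%, CG7492 included). Other arms held 11 calls (2L), 6 (2R), 4 (3R) and 1 (X). In DPLG1 mutants against the same controls 9 genes were called (0.107%) and none on 3L, where 16.5% of genes reached an unadjusted p under 0.05, beside 16.98% of all tested genes. Of the genes on 3L described above, CG43064, CG14823, Zmynd10 and CG13667 did not differ between the mutants past the threshold (edgeR adjusted p = 0.306, 0.176, 0.0913 and 0.0659). The genes pst, CG14985, CG7565, CG4098 and CG40472 did (edgeR adjusted p = 6.52e-07, 5.21e-06, 1.77e-05, 6.85e-06 and 0.000993). Of the 11 calls elsewhere or unplaced, 5 did not differ past the threshold. These were nom, CG31431, obst-B, MCTS1 and CG4020 (edgeR adjusted p = 0.422, 0.525, 0.0783, 0.116 and 0.0896).

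Gene lists are described by counts and medians beside the whole table, in which 48.9% of genes had a positive log2 fold change. Of all tested genes 10.8% reached an unadjusted p under 0.05, and DESeq2 called 2.71%. Upper quartile scaling moved the median of all genes from -0.01 to 0.09, so the sign of a list median that close to 0 depends on the scaling. Chorion genes, which build the outer eggshell, stood highest among the ovary lists. Of 15 tested, all 15 were positive, with a median log2 fold change of 1.41. No member was called by edgeR, while 10 reached an unadjusted p under 0.05 and DESeq2 called 5. Their summed level was 1922, 2506 and 1458 CPM in mutant replicates 15, 3 and 7 and 832, 622 and 336 CPM in the controls, so that the groups did not overlap and controls differed by more than 2-fold. Of the 16 matched chorion genes 7 lie on 3L. Log2 fold changes ran from 0.53 to 2.10. Cp36, on X, stood at 393, 311 and 167 CPM against 151, 120 and 57.2 CPM (edgeR adjusted p = 0.241). The largest change was that of Cp15, on 3L, which stood at 563, 1012 and 536 CPM against 230, 152 and 110 CPM (edgeR adjusted p = 0.255). In DPLG1 mutants it stood at 344 ± 293 CPM, and the median over the list was -0.19 for DPLG4 minus DPLG1 mutants. The median was 0.82 without DPLG4 mutant replicate 15. Egg chambers of late stages hold the chorion transcripts, and in whole ovaries more such chambers and more RNA per cell cannot be told apart.

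Vitelline membrane genes, of the inner eggshell, were all 12 positive with a median of 0.87 (0.40 without mutant replicate 15). Of these, 3 had an unadjusted p under 0.05 and none was called by edgeR or DESeq2. Vm26Aa stood at 305, 266 and 170 CPM against 158, 140 and 88.3 CPM (edgeR adjusted p = 0.415). Yolk protein and uptake genes were positive in 4 of 6, with a median of 0.23. Follicle cell signalling genes were positive in 12 of 18 with a median of 0.41, which was 0.08 without mutant replicate 15. Their 1 member with an unadjusted p under 0.05 was the transcription factor gene Stat92E, at 281, 285 and 289 CPM against 311, 347 and 326 CPM (edgeR adjusted p = 0.432).

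**Figure D4:**
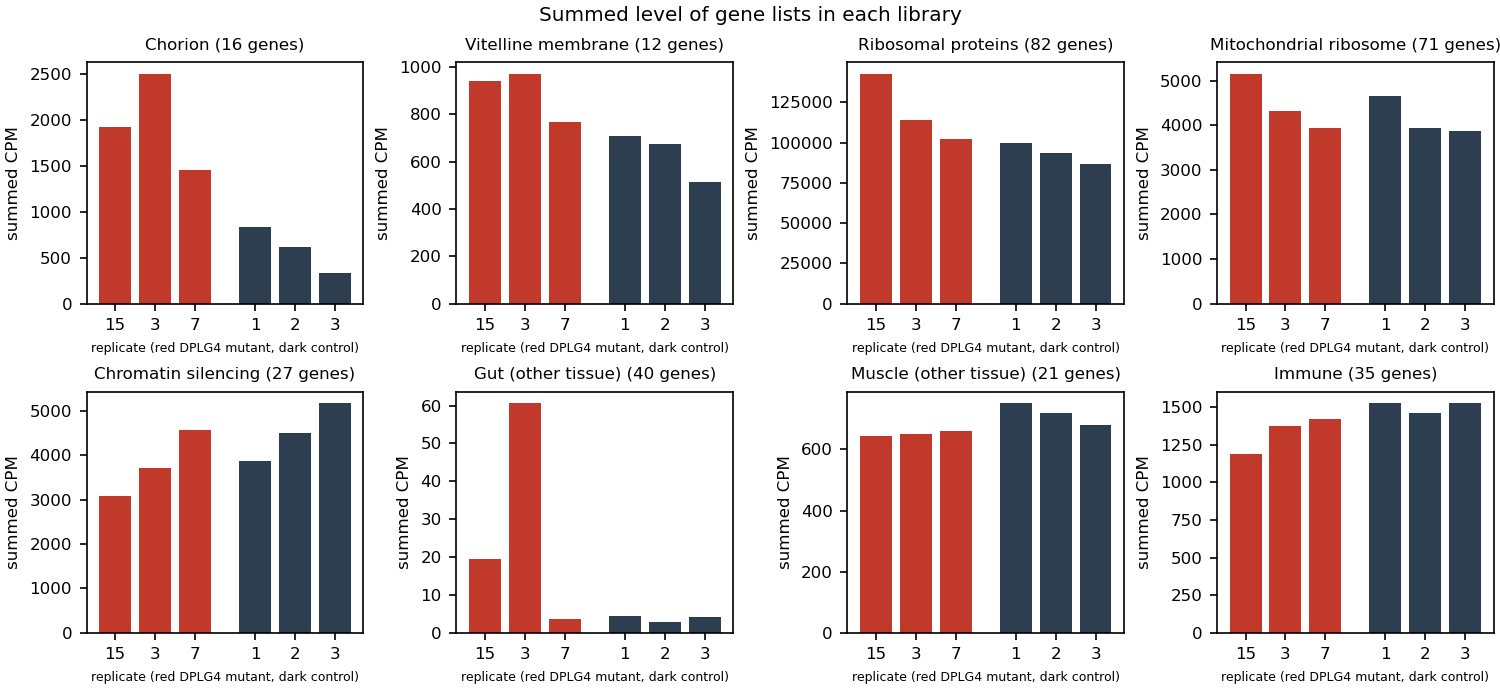
Summed CPM of the genes of 8 lists in each library, with DPLG4 mutants in red (replicates 15, 3, 7) and controls in dark (1, 2, 3). Chorion, vitelline membrane and ribosomal protein sums are higher in every mutant than in every control, and the gut sum is raised in mutant replicates 15 and 3 and not in 7.

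Germline lists lay near the whole table. Early germline genes were positive in 7 of 16 (median -0.02) and maternal patterning genes in 5 of 16 (median -0.15). Of these lists edgeR called none and DESeq2 1 each, and 2 and 3 members reached an unadjusted p under 0.05. The lowest early germline gene was tut, on 3L, a known partner of Bam in translational repression in the male germline. It stood at 10.2, 6.22 and 8.15 CPM against 16.1, 13.8 and 12.995 CPM (log2 fold change -0.80, edgeR adjusted p = 0.165, DESeq2 adjusted p = 0.00267). The neuronal and germline RNA-binding gene Rbp9 stood at 2.88 ± 0.0470 against 4.19 ± 0.428 CPM (edgeR adjusted p = 0.349). Of 22 genes of meiosis and egg activation 13 were positive, and Map205 was the 1 called. The meiotic activator of the anaphase-promoting complex cort came next, at 79.5, 85.7 and 80.6 CPM against 55.6, 60.5 and 62.7 CPM (log2 fold change 0.46, edgeR adjusted p = 0.0864, DESeq2 adjusted p = 6.41e-06). Its groups did not overlap. The piRNA pathway, which silences transposons in the germline, was split evenly, with 13 of 26 genes positive, a median of 0.00, 2 members at an unadjusted p under 0.05 and none called by either tool. AGO3 stood at 459, 390 and 349 CPM against 322, 340 and 301 CPM (edgeR adjusted p = 0.442). Small RNA genes were positive in 3 of 10 (median -0.10), with no member past either tool or an unadjusted p of 0.05.

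Cytosolic ribosomal protein genes were positive in 78 of 79, with a median of 0.37. No member was called by edgeR, while 42 reached an unadjusted p under 0.05 and DESeq2 called 9. Their sum made up 142789, 113865 and 102234 CPM in the mutants and 99615, 93386 and 86776 CPM in the controls, and the groups did not overlap. The median was 0.21 without mutant replicate 15 and 0.21 with the trend on exon length removed from each library, an alternative added after the data were seen. RpS5b, a germline-enriched paralog of RpS5a, stood at 872, 853 and 738 CPM against 473, 576 and 531 CPM (edgeR adjusted p = 0.0834), and reads of such paralogs may be divided between them. RpL10Ab, on 3L, stood at 925, 1045 and 786 CPM against 613, 616 and 514 CPM (edgeR adjusted p = 0.0973). Mitochondrial ribosomal proteins (57 of 70 positive, median 0.11), oxidative phosphorylation genes (38 of 50, 0.12) and the proteasome (22 of 31, 0.08) lay closer to the whole table, with none called by edgeR, 1 called by DESeq2 (a mitochondrial ribosomal protein), and 4, 1 and 5 at an unadjusted p under 0.05. For the first 2 the median was 0.00 and -0.01 without mutant replicate 15. The 15 genes of the mitochondrial genome had a median of 0.53, with 4 at an unadjusted p under 0.05, 1 called by DESeq2 and none by edgeR.

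Chromatin silencing and insulator genes were negative in 22 of 27 with a median of -0.23. None was called by edgeR or DESeq2, and 1 had an unadjusted p under 0.05. That gene, the histone demethylase gene Utx, stood at 159, 160 and 159 CPM against 198, 188 and 174 CPM (edgeR adjusted p = 0.432). The median was -0.12 without mutant replicate 15 and -0.10 with the length trend removed. Cell cycle and endocycle genes were positive in 10 of 33 (median -0.11) and heat shock genes in 4 of 14 (median -0.13), with 1 and 2 members at an unadjusted p under 0.05 and none called by edgeR. The chaperone gene DnaJ-1, on 3L, stood at 237, 247 and 262 CPM against 345, 305 and 320 CPM (edgeR adjusted p = 0.165, DESeq2 adjusted p = 0.00267).

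**Figure D5:**
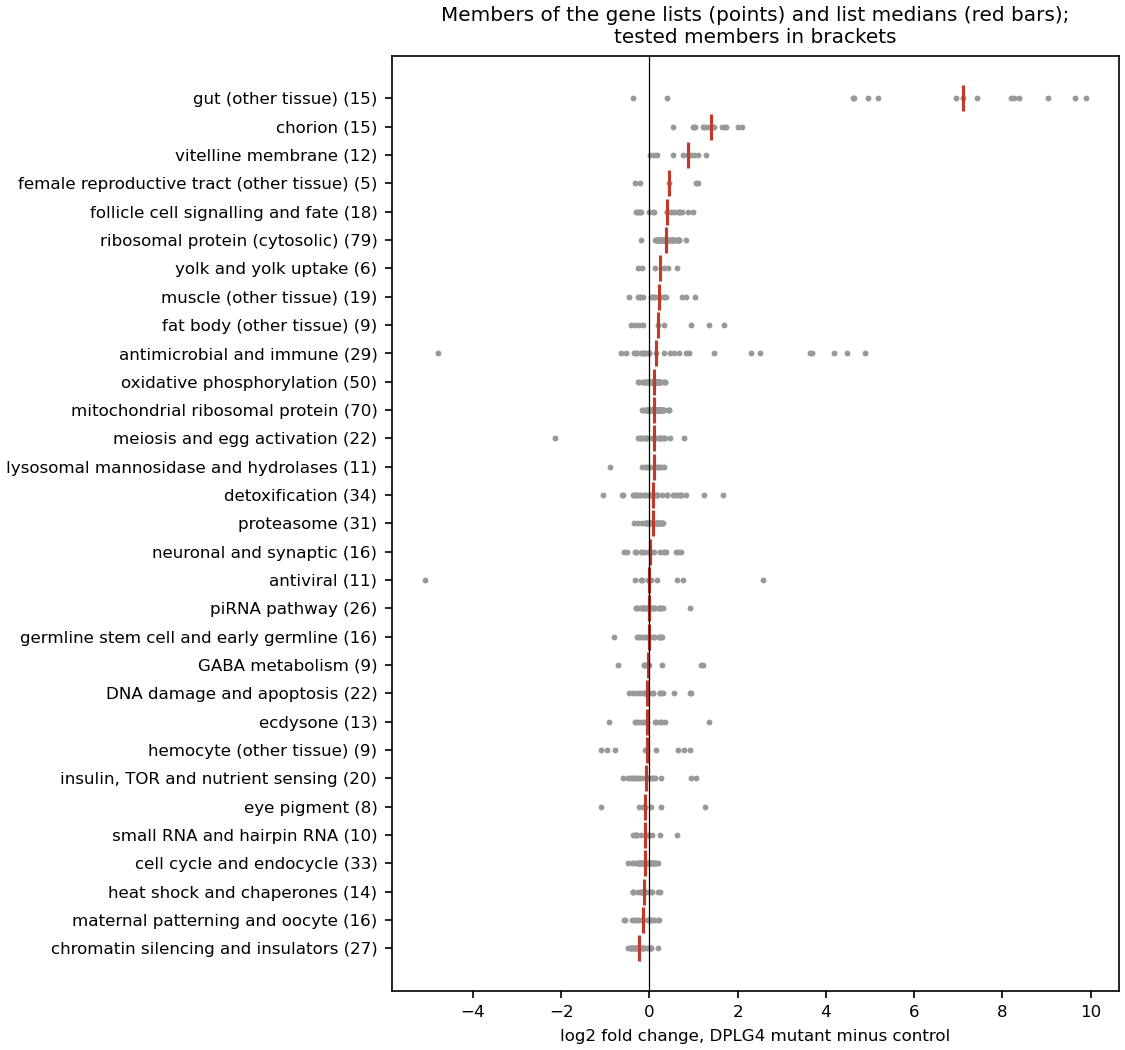
Log2 fold change, DPLG4 mutant minus control, of the tested members of each gene list (grey points) with the list median (red bar) and the number tested in brackets. The testis list, with 2 tested members, is left out. Chorion members all lie above 0, chromatin silencing members mostly below it, and most other lists straddle 0. The gut list rests on genes near 0 counts in the controls.

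Nervous system genes were mostly at low levels in the ovary, with 16 of 27 tested, 8 positive, a median of 0.00, 3 at an unadjusted p under 0.05 and none called by either tool. The capsid gene Arc1 stood at 20.5, 18.8 and 18.8 CPM in DPLG4 mutants and 20.5, 30.6 and 31.7 CPM in controls (edgeR adjusted p = 0.396), beside 131 ± 21.8 CPM in DPLG1 mutants. Of 9 tested GABA genes 3 were positive and Gabat was the 1 called. The ornithine aminotransferase gene Oat stood at 11.6, 2.72 and 3.99 CPM against 2.17, 3.41 and 2.23 CPM, with overlapping groups (edgeR adjusted p = 0.452).

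Antimicrobial and immune genes were positive in 15 of 29 with a median of 0.16, and PGRP-SD was the 1 called. DESeq2 called 3 higher, the antimicrobial peptide genes CecA1, Def and AttA. CecA1 stood at 1.17, 0.414 and 0.177 CPM in mutant replicates 15, 3 and 7 and at 0.0426, 0.0428 and 0.0572 CPM in the controls (edgeR adjusted p = 0.213). Def stood at 1.14, 0.963 and 0.118 CPM against 0.0853, 0.0214 and 0.00 CPM, and AttA at 0.544, 0.248 and 0.0197 CPM against 0.00, 0.0107 and 0.00 CPM. In all 3 genes mutant replicate 15 was the highest and 7 the lowest of the mutants, and the controls were near or under the floor. Of 11 tested antiviral genes 5 were positive and pst was the 1 called.

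Lists of metabolism and stress held few calls. Detoxification genes were positive in 21 of 34 (median 0.09), with 3 members higher and 3 lower past an unadjusted p of 0.05. DESeq2 called 1 higher and 1 lower, and edgeR none. The glutathione transferase gene GstD9 stood at 21.1, 17.5 and 13.8 CPM against 11.4, 9.89 and 8.19 CPM (edgeR adjusted p = 0.165, DESeq2 adjusted p = 0.00443). The cytochrome P450 gene Cyp12d1-p stood at 6.84 ± 0.396 against 10.4 ± 2.19 CPM (log2 fold change -0.61, edgeR adjusted p = 0.23, DESeq2 adjusted p = 0.0107), and its reads may be divided with a near-identical copy. Lysosomal hydrolase genes were positive in 7 of 11 (median 0.09) with LManII called. The protease gene cathD stood on the other side, at 391.9, 377 and 331 CPM against 283, 304 and 291 CPM (edgeR adjusted p = 0.241, DESeq2 adjusted p = 0.0104). DNA damage and apoptosis genes were positive in 8 of 22 (median -0.05) with Drep1 called. Insulin and nutrient sensing genes (6 of 20 positive, median -0.08), ecdysone genes (6 of 13, -0.05) and eye pigment genes (3 of 8, -0.10) had no call by edgeR or DESeq2. Of these lists 3, 0 and 1 members reached an unadjusted p under 0.05. The ecdysone values include dhd (log2 fold change 0.14), which is not an ecdysone gene.

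Markers of tissues that a dissection could carry over were not called by edgeR, while DESeq2 called 3 gut, 1 muscle and 1 hemocyte gene, all higher. An unadjusted p under 0.05 was reached by 7 of 15 tested gut, 3 of 19 muscle and 4 of 9 hemocyte genes. For fat body and female tract genes it was 1 of 9 and 1 of 5. Over all tested genes 10.8% reached that level and DESeq2 called 2.71%. Of the hemocyte genes 2 were higher and 2 lower, and of the muscle genes 2 were higher and 1 lower. The sum over gut genes was 19.6, 60.7 and 3.74 CPM in mutant replicates 15, 3 and 7, against 4.39, 2.89 and 4.18 CPM in the controls. Of 40 matched genes 15 were tested and 14 of these were positive, 13 of them with every control under the level the filter asks for. The trypsin gene alphaTry stood at 3.04, 11.4 and 0.00 CPM in the mutants and at 0.00, 0.0214 and 0.00 CPM in the controls. Gut transcripts were thus raised in 2 of 3 mutant libraries and within the control range in mutant replicate 7. Muscle genes summed to 644 to 662 CPM in mutants and 681 to 752 CPM in controls. Most members went the other way, with 14 of 19 tested positive and a median log2 fold change of 0.22. Much of the sum came from Tm1, at 519 ± 11.7 CPM in mutants and 600 ± 37.1 CPM in controls. Hemocyte genes summed to 394 to 467 CPM in mutants and 404 to 429 CPM in controls. Fat body genes summed to 48.3 to 82.4 CPM in mutants and 56.2 to 84.1 CPM in controls. Testis genes summed to 3.05 to 4.27 CPM in mutants and 2.18 to 2.94 CPM in controls, with 2 of 24 tested, and 3 of 5 tested female tract genes were positive. The part of gut RNA in the differences of the called genes and of the immune and detoxification genes was not tested.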

How the data were processed

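RNA of ovaries was measured in 9 libraries. The authors deposited raw counts per gene, 1 table per library, with 17559 gene identifiers and 5 summary lines, which stayed out of library sizes and tests (11.5% to 13.8% of the total in 8 libraries, 72.0% in control replicate 1). Per the submitters' processing notes, the authors' tools were STAR 2.5, HTSeq, FastQC and DESeq2, and the notes name GRCh37 beside BDGP6. What GRCh37 served for, which annotation was counted and whether strand was used are not given. Names and positions came from Ensembl release 115 (BDGP6.54), which placed 17253 identifiers and left 306 without a position.

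Of 13404 genes with any count, edgeR 4.0.16 (R 4.3.3, limma 3.58.1) tested 8427 that passed filterByExpr by group. Counts were scaled by TMM and fitted by a robust quasi-likelihood model of group alone over all 9 libraries, which leaves 6 residual degrees of freedom and shares 1 spread (biological coefficient of variation 0.217). Calls are genes with a p below 0.05 after Benjamini-Hochberg adjustment. CPM values use TMM library sizes and are given per library, in replicate order (15, 3, 7 for mutants and 1, 2, 3 for controls), or as mean ± SD over 3. SE is the log2 fold change over the root of F. Ratios of summed counts carry 95% exact intervals and floors are 3 counts per library, both for counting error only. The test was tried on simulated counts, where it recovered 10.4% of 1.5-fold, 47.8% of 2-fold and 86.4% of 4-fold changes. Of 100 calls there 4 were false. A gene that was not called can thus still differ.

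Every called gene but 1 on 3L, which is counted but not reported here, is named, with CG7492, its neighbours within 50 kb, and up to 4 members of lowest p per list (32 lists). The members, lists and tests were chosen with earlier results of these data known. Alternatives were other scalings (DESeq2 size factors, upper quartile, TMM from genes off 3L, library sizes without eggshell and yolk genes), no filter or a minimum of 1 CPM in 3 or more libraries, the 6 libraries compared alone, leaving out each replicate, DESeq2 1.42.0 and, added after the data were seen, a trend on exon length removed. Replicates of a group correlated at 0.976 to 0.994 in log CPM, and no pair agreed within sampling noise. Libraries did not sort by group alone. DPLG4 mutant replicate 7 correlated at 0.993 with control replicate 2, against 0.976 and 0.989 with mutant replicates 15 and 3.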

Additional observations from a re-analysis of the deposited data

How the results depend on the processing

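No called gene reversed under any of 18 alternatives: of 624 values of single genes, 419 kept their side of the threshold and the rest no longer passed. The log2 fold change of CG7492 ranged from -6.61 to -6.37 when a replicate was left out and kept its call. Of 35 calls besides CG7492, 9 passed in every alternative: pst, CG14985, CG7565, Ugt305A1, CG4098, Gabat, CG10654 and CG12519 on 3L, and FBgn0042174. With only the 6 libraries compared, 7 genes were higher and 5 lower, with 9 on 3L besides CG7492 and 1 placed elsewhere. With the exon length trend removed there were 35 higher and 23 lower, 20 placed off 3L, and for DPLG4 against DPLG1 mutants 43 higher and 57 lower. DESeq2 gave 156 higher and 72 lower, 78 on 3L and 140 placed elsewhere, and 114 higher and 116 lower against DPLG1 mutants. The cause of these differences was not tested.

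Leaving out a replicate gave 5 to 25 higher and 6 to 11 lower genes, 9 to 20 on 3L and 0 to 13 placed elsewhere, and against DPLG1 mutants 12 to 28 higher and 12 to 27 lower. The lowest count off 3L, 0, came without control replicate 2 or 3. Of the placed calls besides CG7492, 70.6% lay on 3L, 60.6% to 100% over the other edgeR settings and 35.8% with DESeq2. Of 558 list medians 21 moved by more than the rule allows. No paired analysis was possible because the mutant and control libraries share 1 replicate number, and DPLG4 and DPLG1 mutants also share 1. At these depths genes under about 0.2 CPM in a group rest on few counts.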
